A study of Mus musculus with 16 samples.

Results

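The TSC22 domain family of the mouse consists of 4 genes, Tsc22d1, Tsc22d2, Tsc22d3 and Tsc22d4, and all 4 were measured here on 16 single-colour Agilent arrays of HL-1 cells. They were found by matching the RefSeq accession that the scanner files give for each probe to gene symbols, which gave 8 family probes among the 41174 probes of the array: 1 for Tsc22d1, 2 for Tsc22d2, 2 for Tsc22d3 and 3 for Tsc22d4. All 8 were well above background on all 16 arrays. Both probes of Tsc22d3 are described, and every other gene by its probe with the highest mean signal. HL-1 is an established line of mouse atrial cardiomyocytes, immortalised by SV40 large T antigen and labelled female, so that each group is the same line in culture and the model holds 1 cell type. Cells received vehicle (PBS), dexamethasone (Dex, 100 nM), which is a synthetic glucocorticoid, estradiol (E2, 10 nM), which is an estrogen, or Dex+E2 at these same doses, for 6 h, with 4 arrays for each label. The design text of the series speaks of separate experiments, also 4 in number, and of antagonism between glucocorticoids and estrogen in cardiomyocytes.

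Proteins of the family share a leucine zipper next to a conserved TSC box, and several of the genes make long and short proteins from different start sites. Tsc22d3 encodes GILZ, the glucocorticoid-induced leucine zipper, a direct target of the glucocorticoid receptor that binds NF-kB and AP-1 and restrains inflammatory and mitogenic signalling. Tsc22d1 was named for its induction by TGF-beta, and long proteins of Tsc22d1, Tsc22d2 and Tsc22d4 bind the pseudokinase NRBP1 and the WNK kinases that control cell volume.

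Tsc22d3 lies on chromosome X at 140539528-140600522 in GRCm38.p6, Tsc22d1 on chromosome 14 at 76414961-76507765, Tsc22d2 on chromosome 3 at 58414702-58466787 and Tsc22d4 on chromosome 5 at 137745969-137768453. The sources used here do not say where each probe lies within its gene. The RefSeq promoter table of the same build holds 3 start sites of Tsc22d3 and 5 of Tsc22d1. The 250 bases before the 3 start sites of Tsc22d3 are shown because it is the classical glucocorticoid target of the family, together with the 1 stretch of Tsc22d1 that holds the same glucocorticoid hexamer. All are written 5′ to 3′ along the transcript, and capitals mark the hexamer AGAACA or TGTTCT, which is 1 arm of the glucocorticoid response element.
Tsc22d3 chrX:140600523-140600772 (minus strand): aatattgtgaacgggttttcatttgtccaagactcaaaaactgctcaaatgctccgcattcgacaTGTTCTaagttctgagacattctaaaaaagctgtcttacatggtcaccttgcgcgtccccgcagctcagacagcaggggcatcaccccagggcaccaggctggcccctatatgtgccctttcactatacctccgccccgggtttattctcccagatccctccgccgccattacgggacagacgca
Tsc22d3 chrX:140548572-140548821 (minus strand): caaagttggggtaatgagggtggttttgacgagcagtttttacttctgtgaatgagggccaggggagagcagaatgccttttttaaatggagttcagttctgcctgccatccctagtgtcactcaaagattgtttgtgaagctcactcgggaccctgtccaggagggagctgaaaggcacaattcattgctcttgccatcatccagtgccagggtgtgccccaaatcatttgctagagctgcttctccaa
Tsc22d3 chrX:140542669-140542918 (minus strand): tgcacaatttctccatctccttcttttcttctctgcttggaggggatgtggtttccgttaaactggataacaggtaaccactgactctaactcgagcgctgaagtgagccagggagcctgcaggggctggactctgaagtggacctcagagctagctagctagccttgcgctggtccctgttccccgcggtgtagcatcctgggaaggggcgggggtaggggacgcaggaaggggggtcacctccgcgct
Tsc22d1 chr14:76503976-76504225 (plus strand): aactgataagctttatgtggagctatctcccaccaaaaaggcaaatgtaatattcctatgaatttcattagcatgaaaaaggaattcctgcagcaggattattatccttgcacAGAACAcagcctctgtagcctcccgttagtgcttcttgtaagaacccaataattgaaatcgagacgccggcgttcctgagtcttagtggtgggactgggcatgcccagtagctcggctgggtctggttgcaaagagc
The hexamer lies 180 bases before the start in the first Tsc22d3 stretch and 132 bases before it in the Tsc22d1 stretch. It occurs in 16.1% of the 32851 promoter stretches of this length in the table, searched on both strands. The full palindrome, AGAACA and TGTTCT 3 bases apart, occurs in 0.00913% of them and in none of the 8 family stretches. The estrogen response element, GGTCA and TGACC 3 bases apart (0.0639% of stretches), was also in none of these 8, as were the FOXO motif GTAAACA (3.17%) and the AP-1 motif TGANTCA (6.75%). The E-box CACGTG, bound by clock proteins and found in 6.02% of stretches, was in 1, which lies before another Tsc22d1 start site (76415821).

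The arrays could be sorted by Per1, a clock gene that glucocorticoids induce within hours. Its probe A_52_P79889 fell into separate ranges, with levels of 1.75 to 1.99 on 8 arrays (here called Per1-high) and -1.29 to -0.75 on the other 8 (Per1-low). A level here is the log2 processed signal minus the 75th percentile of the same array. Per1-high were Dex 1, 2 and 4, Dex+E2 1, 2 and 4, and also Vehicle 4 and E2 4, while Dex 3 and Dex+E2 3 were Per1-low. For 4 of 16 arrays the Per1 level thus went against the label, and "labelled" is used throughout for that reason. The 2 sets were defined by a measured level, so values in them are descriptions without a test. The arrays lay on 4 slides of 4, each with 2 labels, and between 58.6% and 65.6% of probes per array were well above background. All 14 cardiomyocyte markers examined were well above background on all 16 arrays, with summed linear levels of 711 to 851 on Per1-high and 736 to 856 on Per1-low arrays, over the 15 arrays with a level for all of them. Of these 14, Sln, the gene of sarcolipin, was higher on all Per1-high arrays (3.16 to 3.75 against 2.03 to 2.53) and Gja1, a gap junction gene, lower on all of them (-2.68 to -2.15 against -2.04 to -1.50). Their part in the results was not tested. The leukocyte markers Ptprc and Adgre1 and the endothelial markers Pecam1 and Cdh5 were well above background on 0 arrays. Of the same lists, 5 of 6 fibroblast markers, 2 of 5 endothelial and 1 of 5 leukocyte markers were well above background on all 16. Summed levels were 0.0795 to 0.117 on Per1-high and 0.0953 to 0.158 on Per1-low arrays for all 5 leukocyte markers, 1.82 to 2.30 and 1.13 to 1.65 for the 5 endothelial ones, and 29.0 to 47.9 and 33.5 to 49.9 for the 6 fibroblast ones.

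Tsc22d3, the gene of GILZ, had a higher mean with Dex than with vehicle, a difference that did not pass the test on 16 arrays. It was higher on every Per1-high than on every Per1-low array. Its probe A_51_P235821 had levels of 0.86, 0.69, 0.90 and 1.43 on Vehicle 1 to 4 and of 1.47, 1.43, 1.22 and 1.43 on Dex 1 to 4. It read 0.69, 1.03, 1.02 and 1.53 on E2 1 to 4 and 1.42, 1.52, 1.11 and 1.41 on Dex+E2 1 to 4. Vehicle 4 and E2 4 stood at the height of the Dex arrays, and Dex 3 and Dex+E2 3 were the lowest of their labels, so the labels overlapped. The mean was highest with Dex, at 1.39 ± 0.12 (SD, n = 4), followed by Dex+E2 at 1.36 ± 0.18, E2 at 1.07 ± 0.35 and vehicle at 0.97 ± 0.32. A full separation of the 4 Dex from the 4 vehicle arrays, which this gene did not show, was found for 4.6% of genes, and of Dex+E2 from vehicle for 1.86%. Neighbours in this order differed by less than their SD, except that the step of 0.30 from E2 to Dex+E2 exceeded the SD of Dex+E2 and not that of E2. Fewer cells that make a transcript and less of it per cell cannot be told apart in such bulk RNA.

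Dex minus vehicle was 0.42 ± 0.17 (SE) for Tsc22d3, a 1.34-fold difference with a 95% interval of 0.06 to 0.78 on the log2 scale. The unadjusted limma p was 0.0258 and the Benjamini-Hochberg adjusted p over all 17774 genes was 0.451, so the gene was not called at 0.05. Nor was any other gene in this comparison (0%), although 1934 genes had an unadjusted limma p under 0.05. With slide as a block the difference was 0.39 ± 0.22 (limma adjusted p = 0.511). On slide 1, where Vehicle 1 and 2 lay beside Dex 1 and 2 and Per1 followed the labels, it was 0.68 ± 0.09 (limma adjusted p = 0.0928), while 45 genes (0.253%) were called there. That count was 21 when spots with an outlier flag were kept. Without the 4 arrays whose Per1 level went against the label, the difference was 0.63 ± 0.10, 1.55-fold (limma adjusted p = 0.00567), in a fit that called 432 genes (2.43%). That choice of arrays was made on a gene that Dex induces, so the value is descriptive.

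The other Tsc22d3 probe, A_52_P600518, carries the same transcript accession. It read -0.33, -0.59, -0.32 and 0.28 on Vehicle 1 to 4 and 0.11, 0.26, -0.25 and 0.33 on Dex 1 to 4. On E2 1 to 4 it read -0.31, -0.23, -0.16 and 0.25, and on Dex+E2 1 to 4 0.27, 0.36, -0.41 and 0.23. The same 4 arrays again stood apart from the rest of their label. Dex minus vehicle was 0.35 ± 0.20 on this probe (limma adjusted p = 0.552 over 24456 probes). Across the 16 arrays, which share slides and labels, the 2 probes had r = 0.91.

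**Figure D1:**
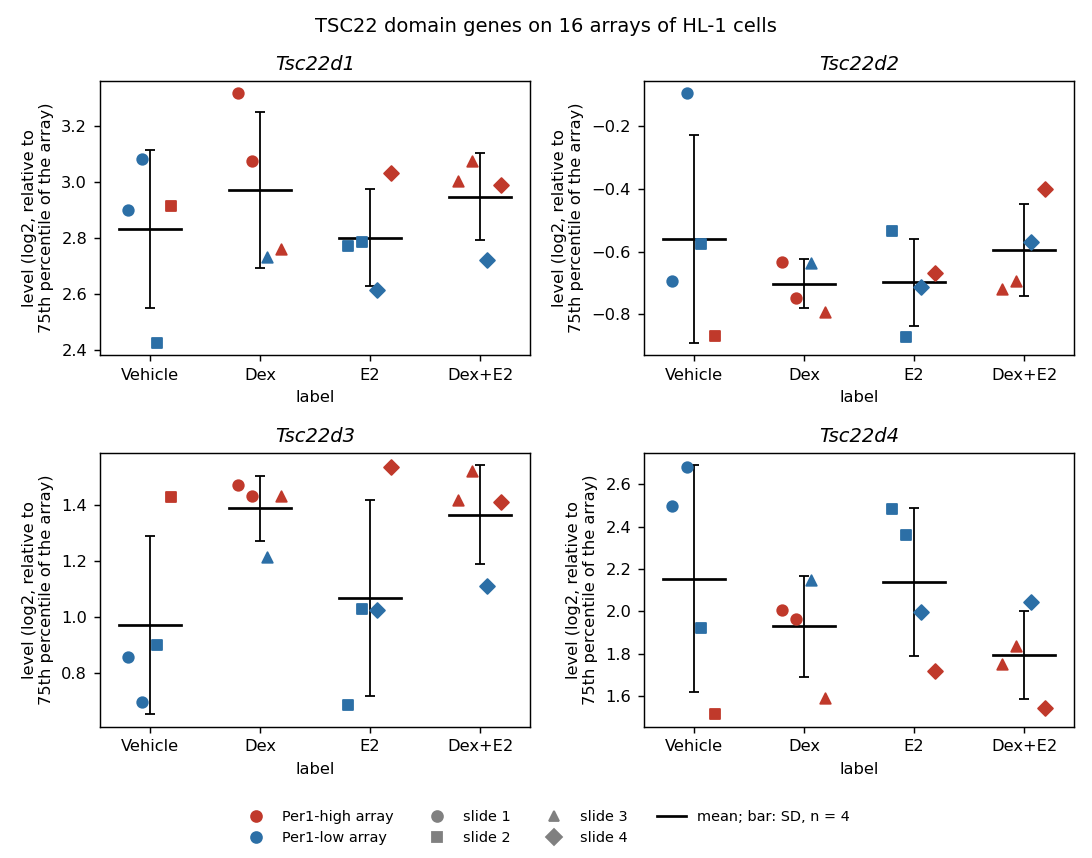
Level of each family gene (log2, less the array's 75th percentile) on the 4 arrays of each label, with mean and SD as black bars; red points are Per1-high arrays, blue points Per1-low arrays, and the shape gives the slide. For Tsc22d3 all red points lie at 1.41 or above and all blue points at 1.22 or below, whatever the label.

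Sorted by Per1, Tsc22d3 fell apart without overlap on both probes. On A_51_P235821 the 8 Per1-high arrays lay between 1.41 and 1.53 (median 1.43) and the 8 Per1-low arrays between 0.69 and 1.22 (median 0.96), with a gap of 0.19. The medians differed by 0.47, or 1.39-fold. On A_52_P600518 the ranges were 0.11 to 0.36 and -0.59 to -0.16, and the medians differed by 0.58, or 1.49-fold. Of 17530 genes with a level on every array, 353 (2.01%) were likewise higher on all Per1-high arrays and 359 (2.05%) lower on all of them. A difference of medians at least as large as that of Tsc22d3 was found for 5.54% of genes. The separation of both probes was also present under the 3 other scalings tried, with differences of 0.39 to 0.48 for the first probe and 0.43 to 0.58 for the other. The summed endothelial markers did not overlap between the Per1 sets either. Kdr, a receptor gene among them, was higher on all Per1-high arrays, at 0.81 to 1.16 against 0.05 to 0.67. Vwf, the other endothelial marker tested, had a median difference of -0.29 with an overlap. Its levels were -4.58 to -3.46, so the sum mostly followed Kdr and is not a separate observation. Their part in this result was not tested.

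The spread within the 2 sets differed. The Per1-high arrays spanned 0.13 on probe A_51_P235821 and the Per1-low arrays spanned 0.53. Within the Per1-low set, Dex 3 (1.22) and Dex+E2 3 (1.11) were the highest on this probe, above the 6 arrays of the set labelled vehicle or E2. On the other probe these arrays ranked 3 and 7 of 8, so the 2 probes did not give the same order within the set. Dex 3 alone stood apart from the other arrays labelled Dex, at 1.22 against 1.43 to 1.47.

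Tsc22d4, a regulator of lipid and glucose metabolism in liver, ran opposite to Tsc22d3 in the medians of the Per1 sets. Its probe A_51_P284466 read 2.50, 2.68, 1.92 and 1.51 on Vehicle 1 to 4 and 2.01, 1.96, 2.15 and 1.59 on Dex 1 to 4. On E2 1 to 4 the levels were 2.48, 2.36, 1.99 and 1.72, and on Dex+E2 1 to 4 they were 1.75, 1.84, 2.05 and 1.54. The array numbered 4 was the lowest in each label, and the vehicle arrays alone spanned 1.17. Levels also shifted with the array number within each Per1 set. Per1-high arrays numbered 1 and 2 read 1.75 to 2.01, and those numbered 4 read 1.51 to 1.72. Per1-low arrays numbered 1 and 2 read 2.36 to 2.68, and those numbered 3 read 1.92 to 2.15. The vehicle mean was 2.15 ± 0.54 (SD, n = 4), that of E2 2.14 ± 0.35, of Dex 1.93 ± 0.24 and of Dex+E2 1.79 ± 0.21, and neighbours in this order differed by less than their SD. Dex minus vehicle was -0.23 ± 0.23 (SE, limma adjusted p = 0.719), a difference smaller than the SD of the vehicle arrays. On slide 1 it was -0.60 ± 0.09 (limma adjusted p = 0.109), and without the 4 arrays -0.51 ± 0.19 (limma adjusted p = 0.182), so it was called in none of these fits.

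The Per1-high arrays lay between 1.51 and 2.01 for Tsc22d4 (median 1.73) and the Per1-low arrays between 1.92 and 2.68 (median 2.25). The median was 0.70-fold that of the Per1-low arrays, a difference of -0.52, and 4.44% of genes had one at least as large in either direction. The 2 sets overlapped by 0.09 of a log2 unit, because Vehicle 3 (1.92) read below both Dex 1 and Dex 2, and E2 3 (1.99) below Dex 1. Under quantile normalization and in the deposited table the overlap closed, by 0.01. Within each of the 4 slides the Per1-high arrays lay below the Per1-low arrays, by 0.60, 0.85, 0.40 and 0.39 on slides 1 to 4, which held for 5.12% of genes. The other probes also had lower medians on Per1-high arrays, at -0.22 for A_52_P384392 and -0.68 for A_51_P215896. On A_51_P215896 the Per1-high arrays were below within all 4 slides, and on A_52_P384392 they overlapped on slide 3. On slide 3, which held 1 Per1-low array, the median difference of A_51_P215896 was only -0.03. The dimmer probe A_51_P215896 had a value of 0.60 on Vehicle 2 against -2.94 to -1.03 on the other 15 arrays. The 3 probes of the gene correlated with r of 0.87 to 0.92 across the 16 arrays.

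Tsc22d1, the TGF-beta-stimulated founder of the family, showed no difference between labels beyond its spread. Its probe A_51_P341918 read 2.90, 3.08, 2.42 and 2.91 on Vehicle 1 to 4 and 3.31, 3.07, 2.73 and 2.76 on Dex 1 to 4. On E2 1 to 4 it read 2.77, 2.78, 2.61 and 3.03, and on Dex+E2 1 to 4 it read 3.00, 3.07, 2.72 and 2.99. Vehicle 3 was the lowest array and Dex 1 the highest, and all 4 labels overlapped. Dex minus vehicle was 0.14 ± 0.15 (SE, 95% interval -0.18 to 0.46, limma adjusted p = 0.737). The median was 0.27 higher on Per1-high than on Per1-low arrays, with overlapping ranges of 2.76 to 3.31 and 2.42 to 3.08. Within slides 2, 3 and 4 the Per1-high arrays lay above the Per1-low ones, by 0.14, 0.27 and 0.34, and on slide 1 they overlapped.

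Tsc22d2, whose long protein is a partner of WNK kinases, showed no difference between labels beyond its spread. Probe A_52_P706621 read -0.70, -0.10, -0.58 and -0.87 on Vehicle 1 to 4, and -0.63, -0.75, -0.64 and -0.79 on Dex 1 to 4. On E2 1 to 4 it read -0.54, -0.87, -0.71 and -0.67, and on Dex+E2 1 to 4 it read -0.72, -0.69, -0.57 and -0.40. Vehicle 2 was the highest array, and all 4 labels overlapped. Dex minus vehicle was -0.14 ± 0.13 (SE, limma adjusted p = 0.696) and was 0.0113 without Vehicle 2. The medians of the 2 Per1 sets differed by -0.10, close to the 0.09 that was the median absolute difference over all genes. The other probe of the gene, A_51_P110725, spanned -2.20 to -1.45 and correlated with the first with r = 0.50 over 16 arrays.

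E2 alone gave no call in any family gene. Of 17774 genes 0 (0%) were called by limma in this comparison, and 682 had an unadjusted limma p under 0.05. In this fit that count is below the share of 0.05 expected with no difference. It was above that share with slide as a block (1438 genes). It was also above it without the 4 arrays whose Per1 level went against the label (1003 genes). E2 minus vehicle was 0.10 ± 0.17 (SE) for Tsc22d3, with a 95% interval of -0.26 to 0.46, and 0.13 ± 0.20 on its other probe. For Tsc22d4 it was -0.02 ± 0.23 and for Tsc22d1 -0.03 ± 0.15, and for Tsc22d2 -0.14 ± 0.13 (limma adjusted p of 0.994 or above for all 4). The signs were not stable: on slide 2, the only slide with both labels, Tsc22d4 was 0.70 ± 0.16 higher with E2 (limma adjusted p = 0.605), and Vehicle 4 on that slide was Per1-high. With slide as a block Tsc22d4 read 0.37 ± 0.24 and Tsc22d3 -0.02 ± 0.22.

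Family levels on the arrays labelled Dex+E2 lay near those of Dex, within wide intervals. Against vehicle, Tsc22d3 was 0.39 ± 0.17 (SE) higher, 1.31-fold, with a limma p of 0.0339 unadjusted and 0.716 adjusted. Without the 4 arrays it was 0.63 ± 0.10 higher (limma adjusted p = 0.00527, in a fit that called 459 genes, 2.58%). Those arrays were left out by the level of a gene that Dex induces, so values without them are descriptive. Tsc22d4 was -0.36 ± 0.23 (limma adjusted p = 0.716) and -0.66 ± 0.19 without the 4 arrays (limma adjusted p = 0.121). Over all arrays 0 genes (0%) were called and 989 had an unadjusted limma p under 0.05. This comparison shares its vehicle arrays with those of Dex and of E2, so the values are not independent.

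Whether adding E2 to Dex changed Tsc22d3 was tested by comparing Dex+E2 with Dex directly. The difference was -0.02 ± 0.17 (SE), with a 95% interval of -0.38 to 0.34 and a limma adjusted p of 1.00. Without the 4 arrays it was 0.0037 with an interval of -0.21 to 0.22. The interval over 16 arrays reaches nearly the size of the Dex minus vehicle difference, 0.42. The interaction of Dex and E2 was -0.12 ± 0.24 for Tsc22d3, -0.12 ± 0.32 for Tsc22d4, 0.01 ± 0.21 for Tsc22d1 and 0.25 ± 0.19 for Tsc22d2 (limma adjusted p = 0.999 for each). Against E2, Dex+E2 gave Tsc22d3 a difference of 0.30 ± 0.17 (limma adjusted p = 1.00), and 0.54 ± 0.10 without the 4 arrays (limma adjusted p = 0.0144, with 343 genes called, 1.93%). The values without the 4 arrays are again descriptive, since Per1, a gene that Dex induces, decided which were left out. Over all arrays 0 of 17774 genes were called in each of these 3 comparisons (0%), with 568, 714 and 661 at an unadjusted limma p under 0.05 for Dex+E2 against Dex, against E2 and the interaction. Each of these counts, from the fit on 16 arrays without a block, is below the share of 0.05 expected with no difference. With slide as a block they were 2098, 458 and 873, the first of them above that share. Without the 4 arrays they were 432, 1835 and 753, of which 1835, against E2, lay above it.

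**Figure D2:**
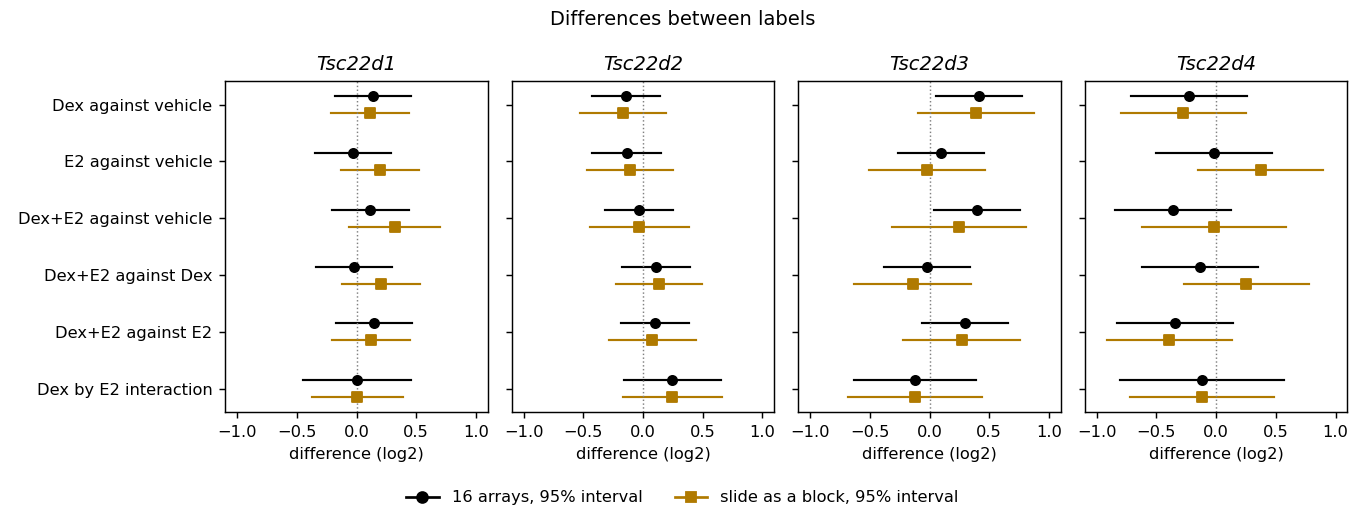
Difference between labels (log2) for each family gene in the 6 comparisons, with 95% intervals; black circles are the fit on 16 arrays, ochre squares the fit with slide as a block. Intervals that exclude 0 are found for Tsc22d3 alone, in Dex and in Dex+E2 against vehicle on 16 arrays, and both reach 0 with slide as a block. Tsc22d3 is shown by probe A_51_P235821. On its other probe, A_52_P600518, both of these intervals include 0 on 16 arrays.

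Within each slide, Tsc22d3 was higher on every Per1-high array than on every Per1-low array. This order follows from the separation of the Per1 sets over all arrays and is no separate result. On probe A_51_P235821 the medians differed by 0.68 on slide 1, 0.53 on slide 2, 0.22 on slide 3 and 0.40 on slide 4. On probe A_52_P600518 they differed by 0.65, 0.59, 0.58 and 0.53. Slides 2 and 3 had a single array on one side, Vehicle 4 as the Per1-high array of slide 2 and Dex 3 as the Per1-low array of slide 3. A separation upward within all 4 slides was found for 3.25% of genes.

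**Figure D3:**
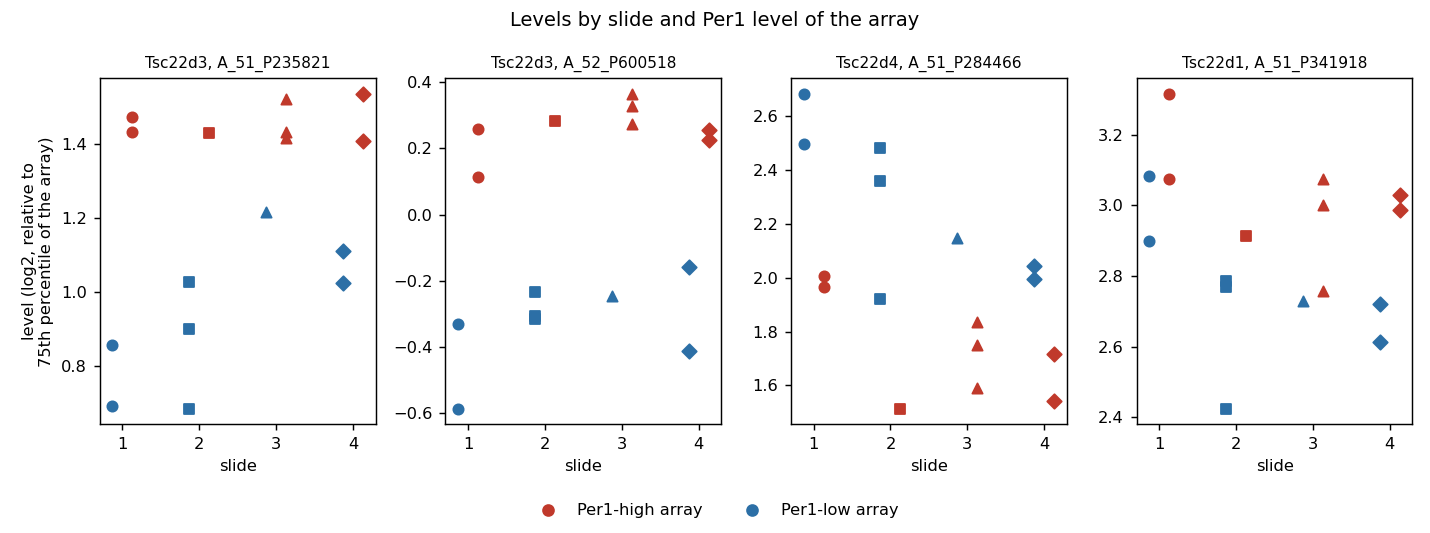
Level (log2, less the array's 75th percentile) by slide for both Tsc22d3 probes, Tsc22d4 and Tsc22d1, with Per1-high arrays in red and Per1-low arrays in blue. Red lies above blue on all 4 slides for both Tsc22d3 probes and below blue on all 4 slides for Tsc22d4; for Tsc22d1 the colours overlap on slide 1.

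Family genes also differed between arrays of 1 label on 1 slide. Array 4 minus array 3, where array 4 was Per1-high and array 3 Per1-low in each label, was 0.53, 0.22, 0.51 and 0.30 for Tsc22d3 (A_51_P235821) in vehicle, Dex, E2 and Dex+E2. For Tsc22d4 it was -0.41, -0.56, -0.28 and -0.50. For Tsc22d1 it was 0.49, 0.03, 0.42 and 0.27, while Tsc22d2 had 2 negative and 2 positive differences. Array 4 lay above array 3 in all 4 labels for 9.74% of genes and below it in all 4 for 15.7%, so neither sign pattern was rare. For Tsc22d3 the positive sign in each label follows from the separation of the Per1 sets and is no separate result. Arrays 1 and 2, which had the same Per1 class within each label, differed in Tsc22d3 by -0.16, -0.04, 0.34 and 0.11. The difference in E2, between 0.69 and 1.03, arose between 2 Per1-low arrays.

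**Figure D4:**
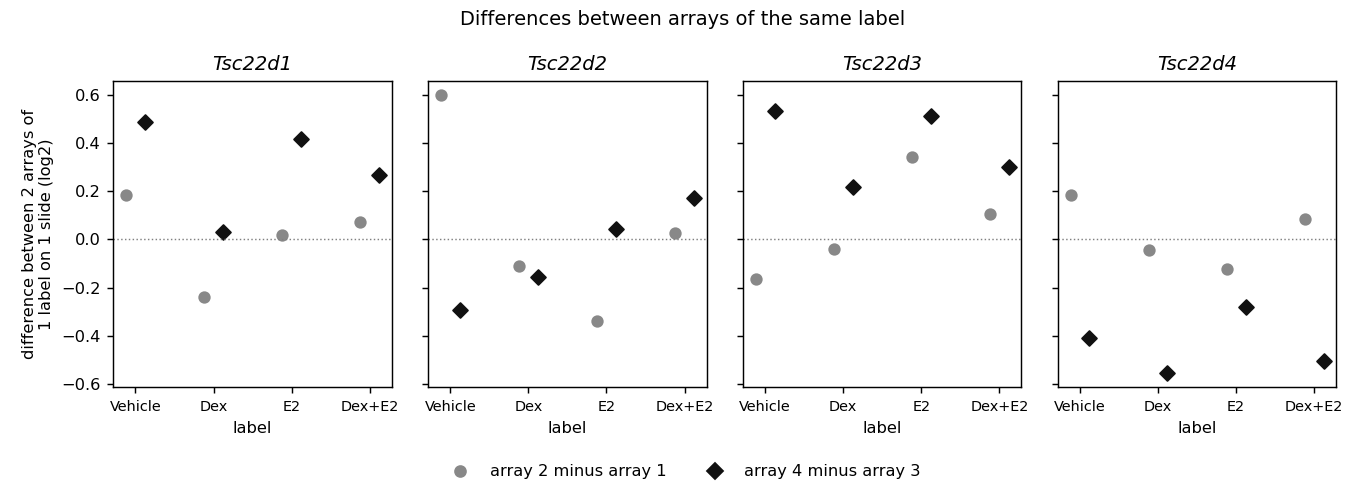
Difference (log2) between arrays of 1 label on 1 slide for each family gene, array 2 minus array 1 as grey circles and array 4 minus array 3 as black diamonds. The black diamonds lie above 0 in all 4 labels for Tsc22d3 and Tsc22d1 and below 0 in all 4 for Tsc22d4.

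The members differed among themselves in how they varied over the arrays. Across the 16 arrays Tsc22d3 and Tsc22d4 had r = -0.83, and -0.86 after the mean of each slide was taken out. Within the 8 Per1-high arrays the same pair had r = 0.34 and within the 8 Per1-low arrays -0.67. Tsc22d1 and Tsc22d4 had r = -0.05 over 16 arrays, and -0.38 with the slide means taken out. Within the Per1-high arrays they had r = 0.80 and within the Per1-low arrays 0.91. Tsc22d1 also shifted with the array number. Its Per1-low arrays numbered 1 and 2 read 2.77 to 3.08, and those numbered 3 read 2.42 to 2.73. Per1-high arrays numbered 1 and 2 read 3.00 to 3.31, and those numbered 4 read 2.76 to 3.03, with an overlap. The part of this shift in the correlations was not tested. Tsc22d1 and Tsc22d3 had r = 0.47. These correlations are descriptions over arrays that share slides and labels.

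By the same measure, the genes most like Tsc22d3 (A_51_P235821) among 12826 genes with a symbol and a level on all 16 arrays were Pik3r6 (r = 0.97), Car14 (0.97), Rab12 (0.96), Pfkfb3 (0.96) and Akr1e1 (0.96). Pik3r6 encodes a regulatory subunit of PI3-kinase gamma, Car14 a membrane carbonic anhydrase, Rab12 a small GTPase, Pfkfb3 an activator of glycolysis and Akr1e1 an aldo-keto reductase. In 4 of these 5 the Per1 sets did not overlap, the exception being Pfkfb3. They were picked for likeness to a probe that separates the sets, so this is no separate finding about them. With the slide means taken out, the first 5 were Chsy1, Pik3r6, Chrna5, Car14 and Rab12, of which 3 were shared. Per1 itself ranked 161, with r = 0.86 over all arrays, 0.07 within the Per1-high and -0.79 within the Per1-low arrays. The genes least like Tsc22d3 were Clip4 (-0.96), the transcription factor gene Sox4 (-0.95) and the small GTPase gene Rab17 (-0.95). In all, 83 genes had r over 0.9.

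Among 17 measured genes known to respond to glucocorticoids, 13 had a positive Dex minus vehicle difference and 0 were called on 16 arrays. Leaving out Per1, the median difference of the other 16 was 0.37, against -0.03 over all genes. Arrdc2, an arrestin domain gene, had the largest positive difference at 1.79 ± 1.02 (SE, limma adjusted p = 0.533), and Dusp1, a MAP kinase phosphatase gene, the lowest value at -0.18 ± 0.19 (limma adjusted p = 0.737). Within slide 1, where 0.253% of all genes were called, 5 of these 16 rose by the limma test at an adjusted p under 0.05. They were the stress kinase gene Map3k6 by 2.13 ± 0.09 (0.0182), Cebpd by 1.40 ± 0.09 (0.0327), the metallothionein gene Mt1 by 1.21 ± 0.08 (0.0327), Arrdc2 by 3.45 ± 0.23 (0.0345) and the Krüppel-like factor gene Klf15 by 2.26 ± 0.18 (0.0483). With outlier-flagged spots kept, Klf15 had a limma adjusted p of 0.0551 there and the other 4 were called. Of the 16, 10 lay higher on all Per1-high arrays, against 2.01% of all genes, and 1 lay lower on all of them, Nr3c1, which encodes the glucocorticoid receptor, by 0.29 in the median. The difference of Tsc22d3, 0.47, was below the list's median of 0.64. The list was chosen with earlier results of these data known.

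The partners of GILZ and the pathways it restrains had differences between Dex and vehicle in both directions. Of 19 tested genes 10 had a positive Dex minus vehicle difference and the median was 0.01, with 0 called on 16 arrays. Cebpb, a C/EBP transcription factor gene, had the largest positive difference at 0.78 ± 0.43 (SE, limma adjusted p = 0.518), and the forkhead gene Foxo4, well above background on 11 arrays, the most negative difference at -1.02 ± 0.45 (limma adjusted p = 0.451). Cebpb was the only member called on slide 1, where it rose by 1.35 ± 0.09 (limma adjusted p = 0.0379), beside 0.253% of all genes. Cebpb and Nfkbia, the NF-kB inhibitor gene, were the 2 of 19 that lay higher on all Per1-high arrays, as 2.01% of all genes did. Cebpb read 0.58 to 0.85 against -0.91 to -0.49, and Nfkbia, over the 15 arrays with a level, 4.08 to 4.42 against 3.39 to 3.89. Rela, which encodes the NF-kB subunit that GILZ binds, had a median difference of -0.10 between the Per1 sets, with an overlap.

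Of 13 tested WNK pathway genes 6 had a positive Dex minus vehicle difference and the median was -0.02, with 0 called. Slc12a4, a potassium-chloride cotransporter gene, had the largest positive difference at 0.27 ± 0.08 (SE, limma adjusted p = 0.451), and the kinase gene Wnk4 the most negative difference at -0.33 ± 0.23 (limma adjusted p = 0.594). Of the 13, 1 lay higher on all Per1-high arrays, Lrrc8a, which encodes a subunit of the volume-regulated anion channel, at 1.70 to 1.98 against 1.31 to 1.68. Another lay lower on all of them, the potassium-chloride cotransporter gene Slc12a7, at 1.21 to 1.32 against 1.33 to 1.46 over the 15 arrays with a level. Such separation upward was found for 2.01% of all genes and downward for 2.05%. Of 13 tested genes of the TGF-beta axis 8 had a positive difference, the median was 0.03 and 0 were called. Smad2 had the largest positive difference at 0.42 ± 0.28 (limma adjusted p = 0.571) and Smad3, also a TGF-beta signal carrier, the most negative difference at -0.16 ± 0.15 (limma adjusted p = 0.691). In this last list 0 genes separated the Per1 sets, against 4.06% of all genes in either direction.

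**Figure D5:**
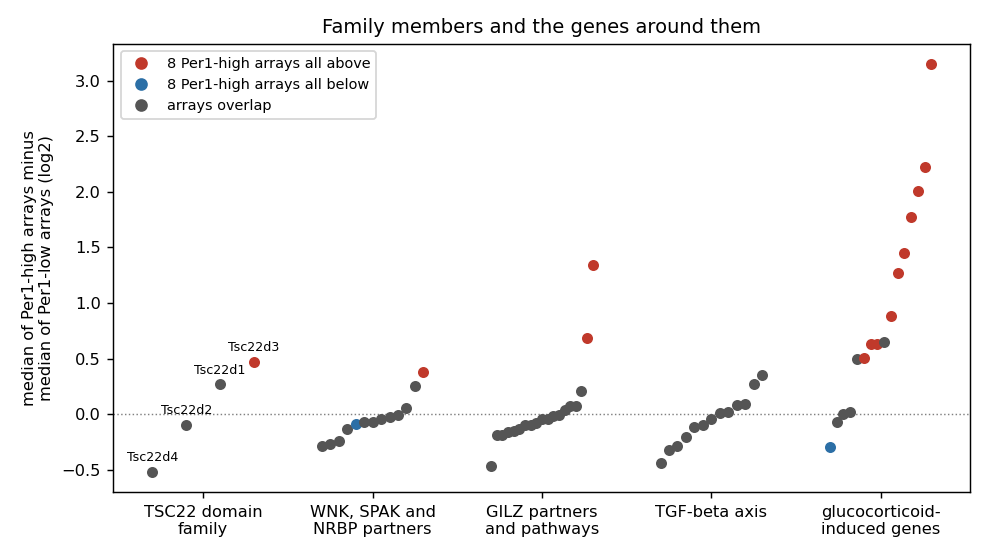
Median of the 8 Per1-high arrays minus median of the 8 Per1-low arrays (log2) for the 4 family genes and for the genes of 4 lists, without Per1; red points are genes whose Per1-high arrays all lie above the Per1-low arrays, blue points all below, grey points overlap. Among the glucocorticoid-induced genes 10 of 16 are red, and 1 is blue. Red are also 2 of 19 GILZ partners and 1 of 13 WNK pathway genes, of which 1 more is blue, and neither colour is found among the 13 genes of the TGF-beta axis; of all genes 2.01% lay above and 2.05% below.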

How the data were processed

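RNA of HL-1 cells was labelled with Cy3 and hybridised to 1-colour Agilent arrays, per the labels' protocols. Per the submitters' processing notes, Agilent Feature Extraction (version 12) quantified the spots, and the deposited scanner files give the processed signal as a background-subtracted intensity, per the file headers. The authors also deposited a log2 value table of the whole series, used as an alternative. Each of its columns had a median of 4.70 and matched its own array best, so its scale was read from the values; the sources used here do not say how it was made.

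Spots with an outlier flag were left out, spots of a probe averaged, and log2 levels taken after division by each array's 75th percentile (402 to 557 intensity units). A probe was kept if some label had it well above background on its 4 arrays (24456 probes), and 1 probe per gene, that with the highest mean, was tested (17774 genes, 13031 with a symbol). Differences were fitted with limma 3.58.1 in R 4.3.3 (lmFit, eBayes with a trend), with the label as the single term over the 16 arrays, and p-values were two-sided and adjusted over all genes per comparison (threshold 0.05, 6 comparisons). The fit was checked on simulated data. The number of arrays limits the precision; whether arrays of a label came from separate cultures is known only from the design text. Accessions matched RefSeq symbols (GRCm38.p6) for 28223 probes.

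Slide 1 held Vehicle 1 and 2 with Dex 1 and 2, slide 2 Vehicle 3 and 4 with E2 1 and 2, slide 3 Dex 3 and 4 with Dex+E2 1 and 2, and slide 4 the rest. Within a slide the position of an array and its label cannot be told apart. The normexp alternative used median spot and background signals with an offset of 50, since the files used here have no mean signal. Named were all family probes, Per1, the genes most and least like Tsc22d3 and, of the 4 pathway lists, the members called (the rule took up to 4), the members with the most positive and most negative Dex minus vehicle difference, and, chosen after their values were seen, those whose Per1 sets did not overlap, with Klf15 and Rela. Cell type markers were given by their sums, and Sln, Gja1, Kdr, Vwf, Pecam1, Cdh5, Ptprc and Adgre1 were named after their values were seen. The members and lists were chosen with earlier results of these data known. Leaving out the 4 arrays, keeping flagged spots and the values within slides by Per1 were added after seeing the data.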

Additional observations from a re-analysis of the deposited data

Results flagged for a closer look

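Tsc22d3 (probe A_51_P235821) on Dex 3 had a level of 1.22, while the other 3 arrays labelled Dex read 1.43 to 1.47, a gap wide for the range of the 4 arrays. Dex 3 was also Per1-low. In all, 20 groups of 4 arrays were examined in this way, and chance alone marks about 1 in 20.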

How the results depend on the processing

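The counts of called genes were 0 in all 6 comparisons with slide as a fixed or random block, under every scaling, with every probe or no filter on dim probes, and with each array left out in turn. The exceptions were 45 genes for Dex against vehicle within slide 1 (21 with outlier-flagged spots kept there, and 0 in each comparison with them kept over 16 arrays), 1 gene for E2 against vehicle with a variance prior without a trend, and, without the 4 arrays whose Per1 level went against the label, 432 genes for Dex against vehicle, 459 for Dex+E2 against vehicle and 343 for Dex+E2 against E2. The replicate numbers were not taken to pair the samples, although the correlations gave some sign of pairing. Their median was 0.12 over pairs of equal number and -0.04 over the 72 pairs of unequal number. Of 24 pairs of equal number, 13 had correlations over 0.1 (range -0.16 to 0.46). All 6 pairs numbered 4 did (0.11 to 0.45), and 10 of 16 arrays correlated best with their own number, a hint from the data and not the design. With the number as a replicate block 0 genes were called in each comparison, and Dex minus vehicle of Tsc22d3 was 0.42 ± 0.14 (SE, limma adjusted p = 0.302).

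Tsc22d3 kept its sign in Dex and in Dex+E2 against vehicle under every setting run and passed the threshold only without the 4 arrays. That setting left arrays out by Per1, a gene that Dex induces, so it is descriptive. Leaving out 1 array moved Dex minus vehicle between 0.33 and 0.57. The sign of small differences turned. For E2 against vehicle, Tsc22d1 read 0.20 with the slide block, 0.0203 with the random block, 0.0132 with normexp and 0.11 within slide 2; Tsc22d2 read 0.0178 within slide 2; Tsc22d3 read -0.0212 with the slide block and -0.31 within slide 2; Tsc22d4 read 0.37 with the slide block, 0.0698 with the random block, 0.0025 with normexp and 0.70 within slide 2. For Dex+E2 against Dex, Tsc22d1 read 0.20, 0.0273 and 0.29 (slide block, random block, within slide 3), Tsc22d3 0.15 within slide 3 and 0.0037 without the 4 arrays, and Tsc22d4 0.25 with the slide block. Dex+E2 against E2 read -0.0195 for Tsc22d3 within slide 4, and the interaction of Tsc22d1 -0.0317 with normexp and -0.0027 with quantile normalization and in the deposited table. The cause was not tested.

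Leaving out 1 array turned the sign in these ranges: Dex against vehicle Tsc22d2 -0.25 to 0.0113; E2 against vehicle Tsc22d1 -0.17 to 0.0538, Tsc22d2 -0.24 to 0.0155, Tsc22d3 -0.0584 to 0.25 and Tsc22d4 -0.23 to 0.16; Dex+E2 against vehicle Tsc22d1 -0.0189 to 0.20 and Tsc22d2 -0.14 to 0.12; Dex+E2 against Dex Tsc22d1 -0.10 to 0.0919 and Tsc22d3 -0.081 to 0.0613; and the interaction Tsc22d1 -0.077 to 0.14, Tsc22d3 -0.27 to 0.035 and Tsc22d4 -0.29 to 0.0949. The difference between the Per1 sets moved by more than the spread for Tsc22d3 within slides 1 and 3 (0.68 and 0.22), Tsc22d4 within slide 2 (-0.85) and Tsc22d2 within slides 1, 2 and 4 (-0.29, -0.29 and 0.11).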
